A study of Drosophila melanogaster with 3 samples.

Results

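Convergent genes lie on opposite strands and point at each other, so that their 3′ ends meet. In the isoform models of fly heads, 256 pairs of such genes had nearest 3′ ends that overlapped or lay at most 200 nt apart. The pairs were selected on the 3′ end positions themselves: the models had to be multi-exon and carry a FlyBase gene identifier, the plus-strand gene had to lie to the left at both of its ends, and each gene was represented by its outermost 3′ end, the one closest to its partner. The 256 pairs held 511 genes, or 12.7% of the 4038 genes with a multi-exon model. CG13875, an uncharacterised gene, was in 2 pairs, because its partners CG34140 and Mkp, a MAP kinase phosphatase gene, shared a 3′ end. The remaining 3527 genes are called other genes below, and 118 of them belonged to 62 facing pairs that lay further apart, by up to 1000 nt.

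The models came from FLAM-seq of heads of 3-day-old wild type w1118 flies, a standard laboratory strain, which were untreated and kept at 25 °C. FLAM-seq reads full-length cDNAs together with their poly(A) tails on a PacBio sequencer, here from 4 µg of total RNA and on 3 SMRT cells. The 3 samples formed 1 group and were merged into 1 assembly before deposit, so that no value below has a spread between samples, no test between conditions was possible, and the read depth behind a model is unknown. The assembly held 5980 models, and 5120 multi-exon models named the 4038 genes. Of 8 photoreceptor markers 7 had a model, all but trp, as did nSyb among the neuronal and Gs2 and Eaat1 among the glial markers, but elav, brp, Syt1 and repo had none. Of 6 ovary markers, Yp1 alone, a yolk protein gene that is also transcribed in the fat body, had a model.

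When convergent transcripts run past each other, their 3′ UTRs are complementary, and they are then called cis-natural antisense transcripts. Such transcripts can pair to double-stranded RNA, which in flies can be processed by Dicer-2 into endogenous siRNAs, and polymerases that converge on the same DNA can collide. The compact fly genome has many such tail-to-tail neighbours. Cleavage of an mRNA 3′ end is directed by a poly(A) signal, most often AATAAA or ATTAAA, that lies shortly upstream of the cut.

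The ends of a few pairs are shown as examples of overlapping, separated and abutting ends. The overlapping and separated ones were picked for having a poly(A) signal in the last 30 nt at both ends. With a search of the last 50 nt, 21 of the 57 overlapping pairs had a signal at both ends. In RabX6/Vti1a (chr3L:691922-691951 on the plus strand and chr3L:691487-691516 on the minus strand, build dm6) and CG44085/Drep4 (chr2L:13284014-13284043 and chr2L:13283586-13283615), the transcripts overlapped. The last 30 nt before each 3′ end, as deposited, follow 5′ to 3′ on the strand of the gene. Bases were taken from the RefSeq genome, and the signal closest to the end is in capitals.
RabX6: aaacAATAAAtaatcaactcacgaaattgg
Vti1a: ccgaaagctatcaataAATAAAggaaacag
CG44085: aacatttttagtaAATAAAgaagtcaaatc
Drep4: ttcaacAATAAAaactttcgattctcagtt
For GC2/Tango9 (chr3R:11972867-11972896 and chr3R:11973091-11973120), the ends stood 194 nt apart.
GC2: aacttataATTAAAggtctcttcccccccc
Tango9: aatacacacATTAAAtgttaattgagctcc
In the next 3 pairs, the 2 models ended on neighbouring bases in the coordinates as deposited. They are BckdhA/AP-1mu (chr3R:9557683-9557712 and chr3R:9557713-9557742), Psn/mRpL15 (chr3L:20435081-20435110 and chr3L:20435111-20435140) and Prosalpha2/Aos1 (chr3R:12432504-12432533 and chr3R:12432534-12432563), and they were chosen for display after their values were seen. A signal stood at 1 of the 2 ends in each, which was the minus-strand end of AP-1mu and mRpL15 and the plus-strand end of Prosalpha2.
BckdhA: catacaaagtgacccactctggtgcaggtg
AP-1mu: aatttAATAAAttttaacaccttttcataa
Psn: tacagtatcatagtctaacaaagctttttg
mRpL15: atgcattttgttaAATAAAgaattggatta
Prosalpha2: aataagtacgggacATTAAAaaaccaataa
Aos1: tgaatatcaaataacaccagttgtaaaatt

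In the coordinates as deposited, most pairs did not overlap and were not separated either, but abutted exactly. The model of the minus-strand gene began on the base after the last base of the plus-strand gene in 172 pairs (67.2%, 95% Wilson interval 61.2 to 72.6%). Another 57 pairs overlapped (22.3%, 17.6 to 27.8%), and 27 stood 35 to 194 nt apart with a median of 132 nt (10.5%, 7.35 to 14.9%). These shares describe the ends that chose the pairs. They also depend on how a left end is counted: 85.0% of 5066 multi-exon models started 1 nt to the right of an annotated transcript end, against 0.671% exactly on one, whereas 85.7% of right ends and 99.8% of inner exon starts were on annotated positions. With every left end moved by 1 nt, the 2 genes of each of the 172 abutting pairs shared their last base, and 229 of the 256 pairs (89.5%) counted as overlapping. The abutting pairs are therefore described apart from the overlapping ones below.

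**Figure D1:**
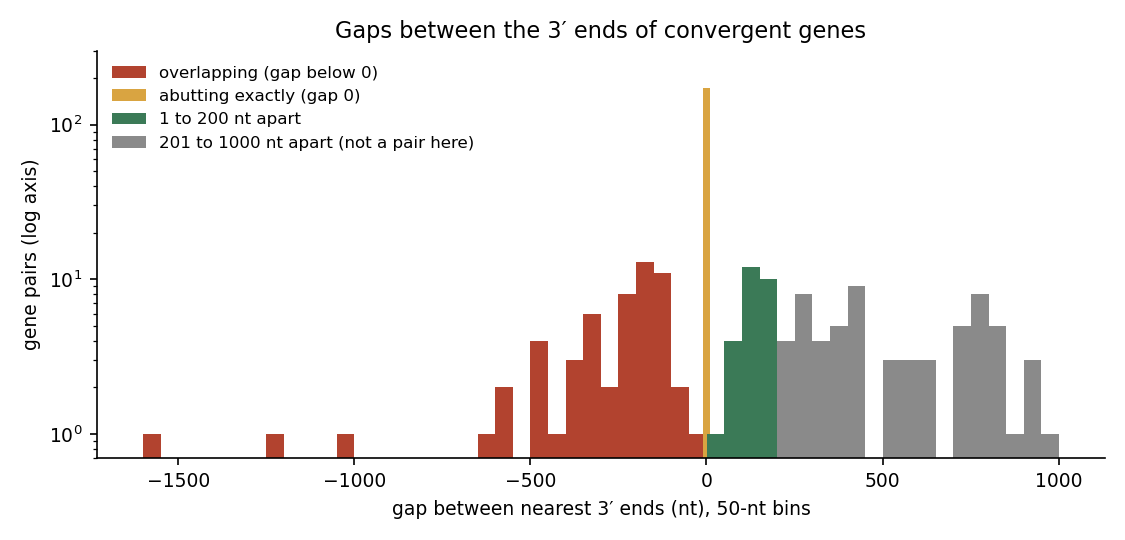
Number of convergent gene pairs (log axis) by the gap between their nearest 3′ ends in nt, in 50-nt bins with exact abutment as a bar of its own. Gaps are those of the coordinates as deposited. The 172 abutting pairs stand above every other bin, the 57 overlapping pairs (below 0) reach 1576 nt, and the grey bars are the 62 facing pairs beyond the limit of 200 nt.

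Just inside the limit of 200 nt were GC2/Tango9 and mei-S332/GM130, both at 194 nt, then CG13887/JMJD5 at 184 nt, CG11162/CG12177 at 179 nt and Mocs1/Pfdn2 at 174 nt. GC2 encodes a mitochondrial glutamate carrier and Pfdn2 a prefoldin subunit. Just outside it were nSMase/RpL28 at 203 nt, CG11857/Kdsr at 204 nt, Idh3g/RpL27 at 227 nt and CG7222/dgo at 256 nt.

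The overlapping pairs shared a median of 203 nt (quartiles 154 and 348, 95% interval of the median 171 to 294 nt). The shortest overlap was 23 nt and the longest 1576 nt, with 54 of 57 over 100 nt, 30 over 200 nt, 6 over 500 nt and 3 over 1000 nt. The overlap was wholly exonic in 46 pairs, and the length shared by exons had quartiles of 139 and 323 nt. The genomic length of the overlap, introns included, was also divided by the shorter 3′ UTR of each pair. Its median was 85.7% of that 3′ UTR in the 53 pairs for which both lengths were known. In 16 of these the overlap was longer than that 3′ UTR. This compares lengths and does not give the part of the 3′ UTR that was overlapped.

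The 3 longest overlaps were built in different ways. Coq7, which encodes a hydroxylase of ubiquinone synthesis, and shf, a secreted protein of Hedgehog signalling, overlapped by 1576 nt on the X chromosome, but their exons shared 0 nt, since the last exons of each gene lay within an intron of the other. No other pair of the 57 lacked a shared exonic base. CG31922 and Charon overlapped by 1205 nt, of which 1017 nt were exonic, and the end of CG31922 lay 1169 nt past its closest annotated 3′ end. CG2124 and CG1628 overlapped by 1023 nt, with 619 nt exonic and both ends on annotated positions. The next were Jhbp11/CAH9 at 640 nt, where CAH9 encodes a carbonic anhydrase, Alas/CG34213 at 587 nt, where Alas is the first enzyme of heme synthesis, and CG12106/CG12118 at 583 nt.

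**Figure D2:**
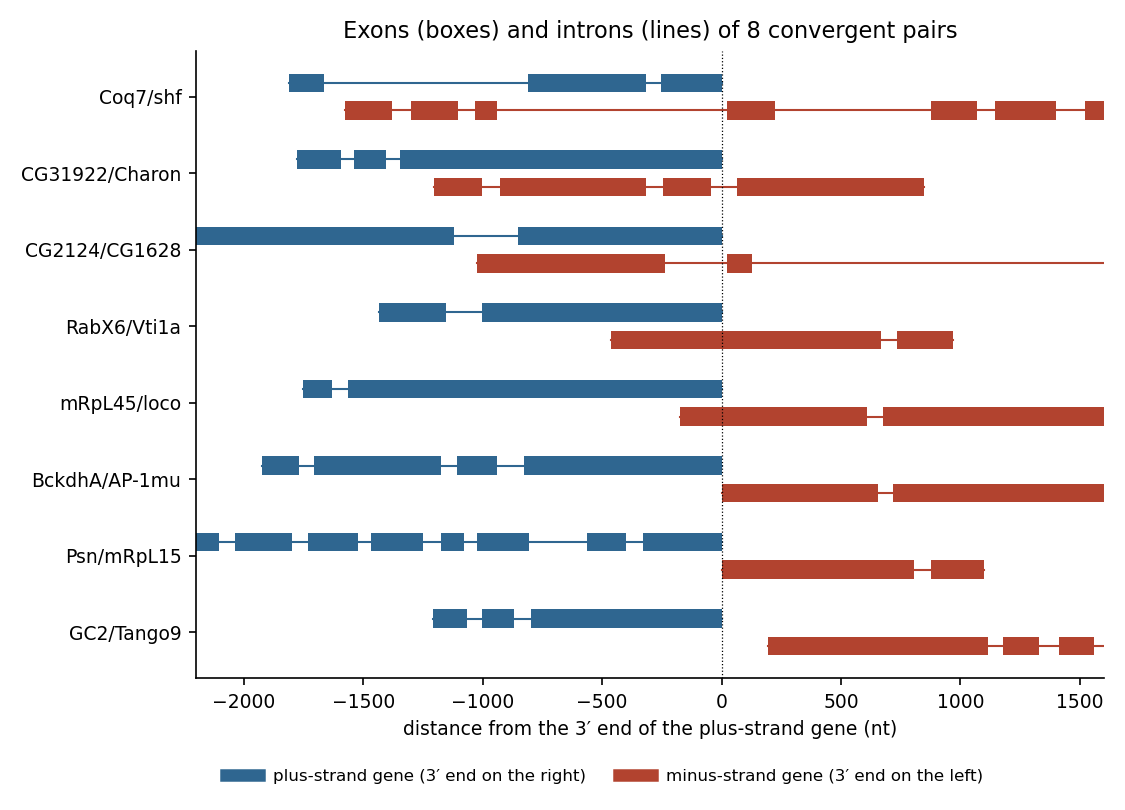
Exons (boxes) and introns (lines) of 1 model per gene in 8 pairs, by distance in nt from the 3′ end of the plus-strand gene (blue), with the minus-strand gene in red. Coq7/shf overlap by 1576 nt without shared exonic bases, RabX6/Vti1a overlap by 465 nt in their last exons, BckdhA/AP-1mu and Psn/mRpL15 abut, and GC2/Tango9 stand 194 nt apart.

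In the other 4 of the 10 longest overlaps, the genes met in their last exons. Ets96B, an ETS family transcription factor gene, and Ude overlapped by 495 nt, RabX6, a Rab GTPase gene, and Vti1a, a SNARE gene, by 465 nt, CG44085 and the nuclease gene Drep4 by 458 nt, and CG7737 and metro, which encodes a MAGUK scaffold, by 455 nt. These overlaps were wholly exonic and reached no coding exon. Both 3′ ends were on annotated positions in Ets96B/Ude and RabX6/Vti1a. In CG44085/Drep4 the end of Drep4 lay 327 nt past its closest annotated end, and in CG7737/metro that of metro lay 167 nt past.

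Overlaps reached into a coding exon of the partner in 14 of the 57 pairs (24.6%, 15.2 to 37.1%), in 2 of them from both sides, and with a median of 219.5 coding nt. The largest was CG31922/Charon, in which the transcript of CG31922 covered 975 nt of coding exons of Charon and that of Charon 9 nt of those of CG31922. In CG2124/CG1628 the corresponding lengths were 289 and 87 nt. The transcript of CG34213 covered 374 coding nt of Alas, that of CG12106 covered 300 nt of CG12118, and that of TBC1d7 covered 287 nt of mRpS24, a mitochondrial ribosomal protein gene. GstT2, a glutathione transferase gene, covered 261 nt of CG12926, Jhbp11 254 nt of CAH9, and Polr3I, an RNA polymerase III subunit gene, 185 nt of DENR, which encodes a translation reinitiation factor. In Trm1/CG5435 and CG1309/CG11586, the minus-strand transcript covered 142 coding nt of Trm1 and 116 coding nt of CG1309.

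Whether an overlap depended on the 3′ end used could be seen in few pairs, because 44 of the 57 had 1 model for each gene. A 3′ end was counted as distinct when it lay more than 150 nt from the others of the gene. Of the 114 genes of overlapping pairs, 15 had at least 2 models, and 6 of these 15 had at least 2 such ends. In 51 pairs each gene had 1 such end, and in the remaining 6 (10.5%, 4.91 to 21.1%) some combinations of ends overlapped and others did not. These were CG17350/fon, CG10680/OS9, FBgn0035987/Atat, Naa80/CG9471, CG42542/Spn88Ea and Jhbp11/CAH9. In 5 of these, 1 of 2 combinations overlapped, and in CG10680/OS9 2 of 3 did.

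The ends of abutting pairs were set against annotated 3′ ends, which the selection did not use. Both genes were annotated in 169 abutting pairs, and the shared boundary was the annotated 3′ end of exactly 1 gene in 168 of them (99.4%, 96.7 to 99.9%), of the minus-strand gene in 108 and of the plus-strand gene in 60. In the last pair, CG4820/CG6689, it was that of both. The partner's model stopped at the base where its neighbour was annotated to end. Whether such an end is a cleavage site of the partner or was set when the models were made was not tested, and this bears on the tail lengths, poly(A) signals and gene list shares of abutting pairs given below. The partner stopped short of its own closest annotated end in 103 pairs, by a median of 32 nt and at most 114 nt, and ran past it in 65 pairs, by a median of 48 nt and at most 2059 nt. In 46 pairs the partner was within 10 nt of its own annotated end. BckdhA, a subunit of the branched-chain ketoacid dehydrogenase, stopped 64 nt short at the end of the clathrin adaptor gene AP-1mu, and Psn, the presenilin gene, 46 nt short at the end of mRpL15.

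Poly(A) signals differed between the sides of the abutting pairs. AATAAA or ATTAAA, in this orientation, was searched on the strand of the gene in the 50 nt that end at the 3′ end, and 65.2% of all 4038 outermost 3′ ends held at least 1 of them. In the 168 abutting pairs, a signal was present at 122 ends of the gene at its annotated end (72.6%, 65.4 to 78.8%) but at 61 ends of the partner (36.3%, 29.4 to 43.8%). The same partners had a signal at their own closest annotated end in 110 cases (65.5%, 58.0 to 72.2%). Ends of other genes off their annotated positions were not counted apart. Whether the low share is particular to abutting partners was therefore not tested. Both ends had a signal in 43 pairs, the annotated end alone in 79, the partner's end alone in 18 and neither in 28. In ATPsynO/CG14864, where both ends had one, ATPsynO, an ATP synthase subunit gene, stopped only 6 nt short of its annotated end. Prosalpha2/Aos1 was among the 18, with Prosalpha2, a proteasome core subunit gene, stopping 23 nt short.

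**Figure D3:**
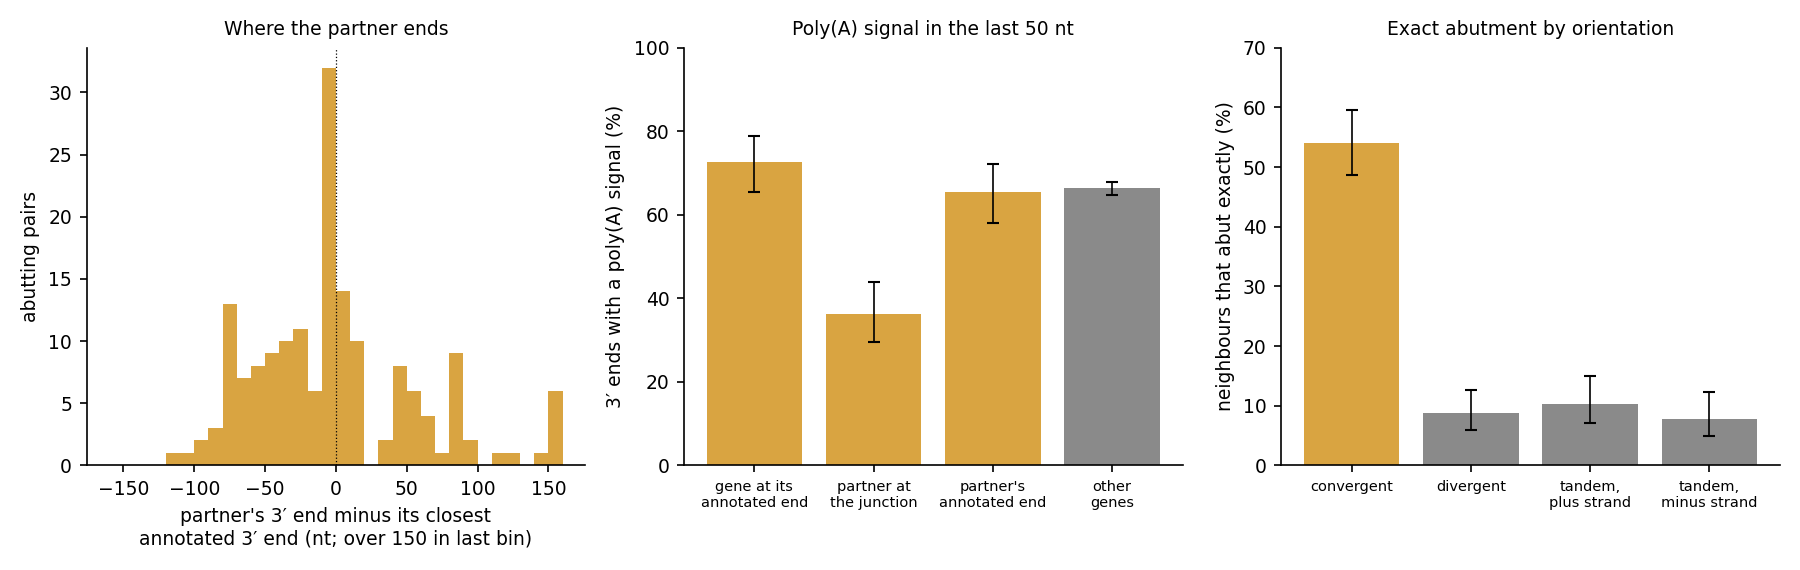
Left, number of abutting pairs by the distance in nt between the partner's 3′ end and its own closest annotated end; middle, percent of 3′ ends with AATAAA or ATTAAA in the last 50 nt; right, percent of neighbouring genes within 1000 nt that abut exactly, by orientation; bars in the last 2 panels have 95% Wilson intervals. Partners at the junction, which are off their own annotated ends, have a signal in 36.3%. The share is 66.3% in other genes, of whose ends 77.1% are on an annotated end. Convergent neighbours abut exactly in 54.1%, against 7.80 to 10.3% in the other orientations. Most neighbours in the other orientations lie over 200 nt apart, which lowers their shares.

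Exact abutment was also counted in the other orientations. Among neighbouring genes that overlapped or lay at most 1000 nt apart, it was found in 172 of 318 convergent pairs (54.1%, 48.6 to 59.5%), against 24 of 274 divergent pairs (8.76%, 5.96 to 12.7%), 24 of 232 tandem pairs on the plus strand (10.3%, 7.05 to 14.9%) and 16 of 205 on the minus strand (7.80%, 4.86 to 12.3%). The limit of 1000 nt matters here: 218 divergent and most tandem pairs lay over 200 nt apart, but 62 convergent ones. Within 200 nt, 24 divergent pairs abutted, 5 overlapped and 27 stood apart. The same counts were 24, 4 and 36 in tandem pairs on the plus strand, and 16, 1 and 53 on the minus strand. In convergent pairs they were 172, 57 and 27. Abutting pairs thus occurred in every orientation, but were the majority within 200 nt in convergent pairs alone. In the Ensembl annotation, 2515 pairs of protein-coding genes met the same rule on the gap. Of these, 57.9% overlapped, with a median of 81 nt, and 1.43% abutted exactly. Annotated gaps carry no 1-nt offset of left ends, so that an exact abutment of models equals an annotated overlap of 1 nt. Their counterpart is the count with left ends moved by 1 nt, in which 89.5% of the 256 pairs overlapped, with a median of 1 nt. Of the 2515 annotated pairs, 283 had multi-exon models of both genes, and 240 of the 283 were among the pairs described here.

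The same boundary was seen in genes with no modelled partner. The outermost 3′ end was exactly on an annotated 3′ end of the gene in 297 of 506 annotated genes of the pairs (58.7%, 54.4 to 62.9%) and in 2698 of 3499 other genes (77.1%, 75.7 to 78.5%), with 74.8% over all genes. An abutting pair has 1 boundary, so that in general only 1 of its genes can be on its own annotated end. The values of the pairs here are therefore tied to the selection. In genes of overlapping or separated pairs, 124 of 166 ends (74.7%) were on an annotated end. Among ends off their own annotated ends, 187 of 209 in the pairs (89.5%) and 376 of 801 in other genes (46.9%, 43.5 to 50.4%) were on the annotated 3′ end of a gene on the opposite strand. For 361 of the 376, that neighbour had no multi-exon model, so that no pair could be formed with it. Among ends on their own annotated position, the corresponding counts were 2 of 297 in the pairs (0.673%) and 12 of 2698 in other genes (0.445%). A further 85 ends of other genes were on an annotated start of a gene on the same strand, and 315 were on no annotated end of another gene. Whether the reads themselves stopped at these boundaries was not tested, because the reads are not used here.

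Overlapping and separated pairs compared differently with the annotation. In the 55 overlapping pairs with both genes annotated, both 3′ ends were on annotated positions in 27, 1 end in 19 and neither in 9. The overlap was within 1 nt of the annotated one in 24, longer in 23 and shorter in 8, and 42 of the 55 overlapped in the annotation as well, with a median of 175.5 nt. In mRpL45/loco, for example, the outermost annotated ends were 141 nt apart. The model of mRpL45 ran 421 nt past its closest annotated end and overlapped loco by 174 nt, with a signal at both ends. The model of loco ended on an annotated end of loco other than the outermost one. Of the 27 pairs apart, 22 had both ends on annotated positions. Of these 27, 5 overlapped in the annotation, among them GC2/Tango9, whose outermost annotated ends overlapped by 1890 nt. Of the 169 abutting pairs, 110 overlapped in the annotation, by a median of 38.5 nt. Annotated gaps and overlaps carry no 1-nt offset of left ends.

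Tails were long in overlapping pairs and short in abutting ones. The 3′ UTR was measured from the annotated stop codon, and its length is tied to the selection, since a longer tail comes closer to its neighbour. The median was 373 nt in genes of overlapping pairs (292 to 425 nt, n = 110), 127 nt in abutting pairs (119 to 146 nt, n = 337) and 237 nt in pairs apart (169 to 315 nt, n = 53), against 202 nt in other genes (192 to 213 nt, n = 3413) and 177 nt in facing genes (127 to 260 nt, n = 117). Over all member genes it was 179.5 nt (160 to 213 nt), an interval that includes the 202 nt of other genes. Without the abutting pairs it was 323 nt (253 to 372 nt), which is above other genes. The last exon had a median of 723.5 nt in overlapping pairs, 512 nt in abutting pairs and 712.5 nt in pairs apart, against 595 nt in other genes (576 to 616 nt). Over all member genes it was 610 nt (537 to 661 nt), an interval that includes the 595 nt of other genes. With the median over the models of a gene, the order was the other way, with 570 nt in member genes and 585 nt in other genes. In the abutting pairs, the gene at its annotated end had a median 3′ UTR of 124 nt and its partner of 139 nt, with overlapping 95% intervals.

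**Figure D4:**
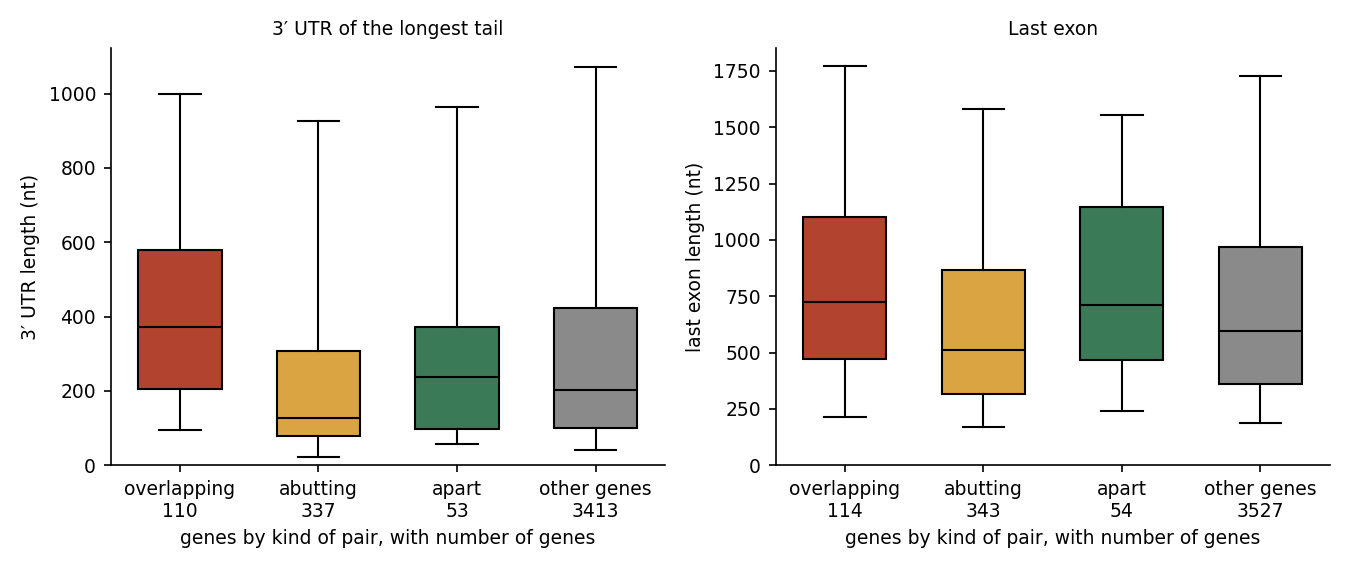
3′ UTR length (left) and last exon length (right), in nt, for genes of overlapping, abutting and separated pairs and for other genes; boxes show the median and quartiles, whiskers the 5th and 95th percentiles, and the number of genes stands under each box. The median 3′ UTR is 373 nt in overlapping pairs, 127 nt in abutting pairs and 202 nt in other genes.

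Signals were also counted over all genes of the pairs. They were present at 293 of 511 member ends (57.3%, 53.0 to 61.6%), against 2340 of 3527 other ends (66.3%, 64.8 to 67.9%). The share was 56.1% (47.0 to 64.9%) in overlapping pairs, 54.2% (48.9 to 59.4%) in abutting pairs, with overlapping intervals, and 79.6% (67.1 to 88.2%) in pairs apart, where none of the 27 pairs lacked a signal at both ends. In the 57 overlapping pairs, 21 had a signal at both ends, 22 at 1 and 14 at neither. In Coq7/shf, Coq7 had ATTAAA and shf had none of the searched signals, and CG12106/CG12118 had none at either end.

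Few genes had several 3′ ends, in the pairs or outside them. At least 2 were found in 19 of 511 genes (3.72%, 2.39 to 5.73%), against 174 of 3527 other genes (4.93%, 4.27 to 5.70%) and 4.78% of all genes. Among genes with at least 2 models, the shares were 24.4% of 78 member genes (16.2 to 34.9%) and 29.3% of 594 other genes (25.8 to 33.1%). Alternative transcription start sites, more than 50 nt apart, were found in 5.48% of member genes and 5.02% of other genes. Rad23/Zip102B on chromosome 4 was the only pair in which both genes had 2 ends, and with 108 nt between the nearest of them, no combination overlapped. Zip102B is a zinc transporter gene and Rad23 a proteasome shuttle gene. In 17 pairs 1 gene had several ends, among them kra, a translation regulator gene with 3 ends whose outermost abutted Vha26, and Mlp60A, a muscle LIM protein gene with 3 ends. The longest model of each gene had a median of 1529 nt in member genes and 1532 nt in other genes, and 3 exons in both.

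Gene functions were described with 22 lists of symbols, each set against the 12.7% of all genes that were in a pair. Mitochondrial ribosomal proteins had the highest share, with 13 of 43 genes (30.2%, 18.6 to 45.1%). Of these, 2 were in overlapping pairs, mRpS24 with TBC1d7 and mRpL45 with loco, and 11 in abutting pairs, such as mRpL15 with Psn. Without the abutting pairs the share was 4.65%, next to 4.16% of all genes. RNA polymerase, general transcription factor and Mediator genes followed with 7 of 34 (20.6%, 10.3 to 36.8%), among them Polr3I with DENR, Taf7, a TFIID subunit, with Prat at 247 nt of overlap, and TfIIB with TBC1D16 at 235 nt. Over the 22 lists, the interval of mitochondrial ribosomal proteins alone did not include 12.7%.

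**Figure D5:**
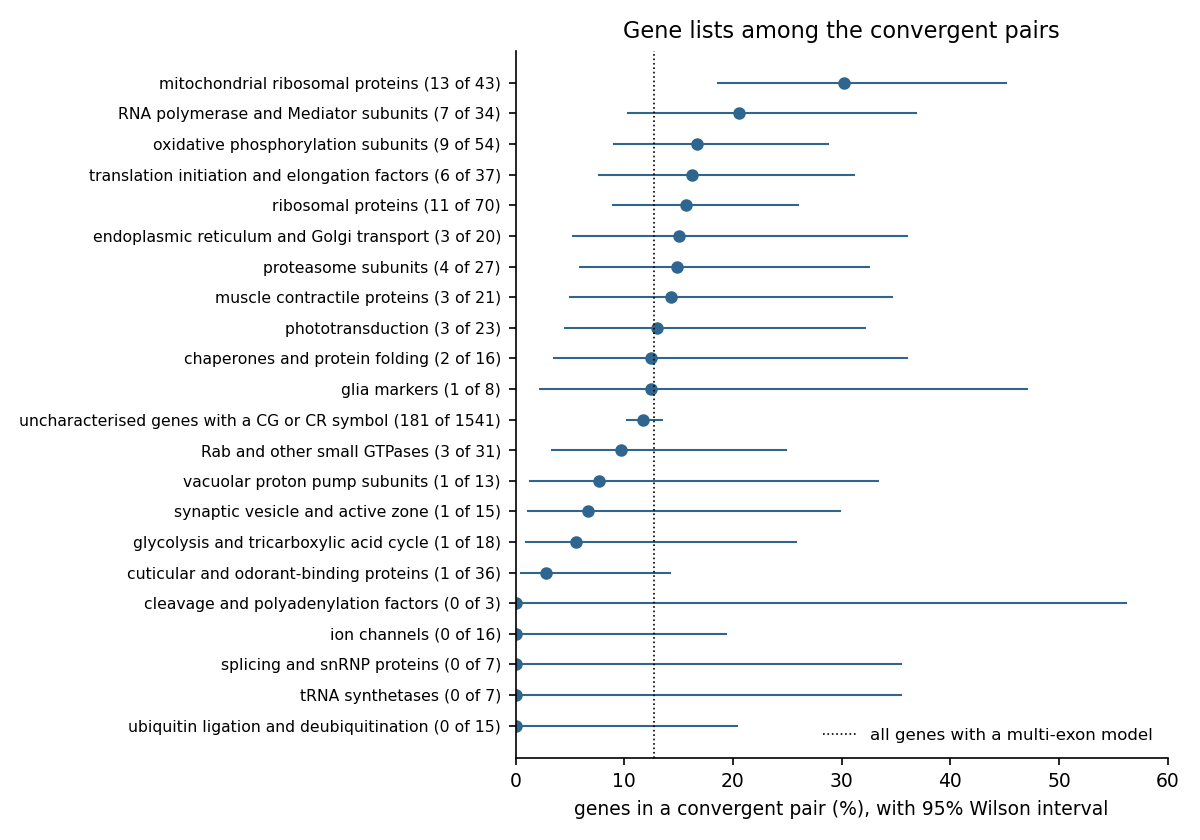
Percent of genes with a multi-exon model that were in a convergent pair, for 22 gene lists, with 95% Wilson intervals; the dotted line is the share over all genes. Mitochondrial ribosomal proteins lie highest at 30.2%, and their interval starts at 18.6%.

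The intervals of the other lists of housekeeping genes all included 12.7%. Oxidative phosphorylation subunits had 9 of 54, including ND-13A with CG4230 at 323 nt of overlap, SdhB with CG15237 at 128 nt and SdhD with PTPMT1, a mitochondrial phosphatase gene. Cytoplasmic ribosomal proteins had 11 of 70, of which 7 abutted their partner and 3 stood apart. Translation factors had 6 of 37, with eIF3m overlapping O-fut1, the Notch O-fucosyltransferase gene, by 233 nt, and proteasome subunits had 4 of 27, with Rpn9 overlapping CG10365 by 124 nt. Chaperones had 2 of 16, small GTPases 3 of 31, genes of endoplasmic reticulum and Golgi transport 3 of 20, vacuolar proton pump subunits 1 of 13, and glycolysis and tricarboxylic acid cycle enzymes 1 of 18, ScsbetaA.

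Genes of the specialised cells of the head are given with the kind of their pairs, beside the 343 of 511 member genes (67.1%) that abutted a partner. Phototransduction genes had 3 of 23 in a pair, all abutting: Gbeta76C, the eye-enriched G protein beta subunit, with verm, the scaffold gene inaD with RpL23, and santa-maria, a scavenger receptor gene of carotenoid uptake, with CG5973. Muscle genes had 3 of 21, all abutting, with TpnC25D, a troponin C gene, ending 53 nt short at the annotated end of the BMP receptor gene tkv. Synaptic genes had 1 of 15, Syngr, cuticular and odorant-binding protein genes 1 of 36, Cpr67Fb, and glia markers 1 of 8, loco. No member came from ion channels (0 of 16), ubiquitin ligases and deubiquitinases (0 of 15), tRNA synthetases (0 of 7), splicing proteins (0 of 7) or cleavage and polyadenylation factors (0 of 3), which allows shares of up to 19.4, 20.4, 35.4, 35.4 and 56.1% by the Wilson intervals. Uncharacterised genes had 181 of 1541 (11.7%, 10.2 to 13.4%). Of the 181, 41 were in overlapping pairs, beside 114 of all 511 member genes. In 4 pairs both genes were on lists other than this last one, namely mRpL45/loco, COX7B/Polr3G, RpL12/RpL39 and RpL23/inaD, and all but mRpL45/loco abutted.

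Pairs were spread over all arms. Arm 3R had 73 pairs, 2R 57, 3L 56, 2L 45, X 24 and chromosome 4 had 1. The share of genes in a pair was 14.2% on 3L, 13.6% on 3R, 12.9% on 2R, 11.6% on 2L, 9.70% on X (7.39 to 12.6%) and 6.06% on chromosome 4 (2 of 33 genes).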

How the data were processed

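FLAM-seq was performed on 3 samples of w1118 heads. The authors pooled the replicates before assembly, aligned the reads to dm6 with STARlong and collapsed them into isoforms with FLAIR, with splice junctions corrected by short reads and 5′ ends required in a promoter database. The deposited values are exon start and end coordinates of these models, with no depth and 0 columns per sample. The sources used here do not say if these models had passed the study's filter on 3′ ends. The submitters' processing notes also name featureCounts. Lengths of poly(A) tails are not analysed.

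The gap was the left-most end of the minus-strand gene minus the right-most end of the plus-strand gene minus 1. Annotation came from Ensembl release 115 and bases from the RefSeq genome, both in dm6 coordinates; 99.1% of introns had GT and AG, and 33 of 4038 genes were not annotated. Comparisons of single ends with annotated ends moved left ends by 1 nt, but the gaps and overlaps of models did not. The printed bases, the signal searches at model ends and the 3′ UTR and last exon lengths also used left ends as deposited. Printed minus-strand bases therefore stop 1 nt before the moved end. 3′ ends were grouped at 150 nt, starts at 50 nt, and the longest 3′ UTR per gene was used. Shares have Wilson and medians order-statistic 95% intervals, which cover counting error only, and genes are not replicates. Single-exon models were left out by the rule, and 98.4% of those of annotated genes were recorded on the other strand.

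Named pairs were the 10 longest overlaps, the 5 smallest gaps, the 5 on each side of the limit, up to 10 each with 2 ends in both genes, with coding overlap and with both genes on lists, and up to 3 members per list; ties went by symbol, and others were named after their values were seen. Some pairs that this rule names are not reported here. The members and lists were chosen with earlier results of these data known. The pair finder was tested on simulated data and recovered 304 of 304 pairs. Python 3.11.15, scipy 1.17.1 and matplotlib 3.10.9 were used.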

Additional observations from a re-analysis of the deposited data

Results flagged for a closer look

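Single-exon models, which were not used in the report, held further convergent pairs. When they were added, each on the strand of its gene in the annotation, 74 pairs entered and 0 dropped out, giving 330 pairs. Of the 74, 45 overlapped, 18 abutted exactly and 11 stood apart. Their recorded strand was turned by the annotation, so these pairs rest on it.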

How the results depend on the processing

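Of 33 alternatives over 11 results, 19 stayed within the 95% interval of the reported value, or within 1.5 times a reported count, and 14 did not. With single-exon models added, 31.5% of 330 pairs overlapped and the median overlap was 137.5 nt. With the plus-strand gene to the left by its 5′ end alone, 34.1% of 302 pairs overlapped. Signals at member ends fell to 46.4% in the last 30 nt (54.1% in other genes) and to 44.4% for AATAAA alone (55.6% in other genes). With the annotated end of the transcript of longest coding sequence, 53.4% of the pairs overlapped in the annotation, against 62.5% with the outermost end. Among genes with at least 2 models, 24.4% of member genes had at least 2 3′ ends.

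The alternatives with left ends moved by 1 nt, with both ends at annotated ends and without pairs that abut exactly were chosen after seeing the data. With left ends moved, 89.5% of pairs overlapped, with a median of 1 nt. Without pairs that abut exactly, 84 pairs remained, the median 3′ UTR of member genes was 323 nt, the last exon 723.5 nt, signals 63.7% and mitochondrial ribosomal proteins 4.65%. The cause was not tested. The direction against other genes turned for the 3′ UTR under this choice. For the last exon it turned with the planned median over the models of a gene, with 570 nt in member genes and 585 nt in other genes, where the reported values were 610 and 595 nt. No sample could be left out, and no paired analysis was possible because the samples were pooled into 1 assembly. Depth is unknown, so that a missing 3′ end may be an unsampled one.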
